A study of Mus musculus with 10 samples.

Results

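The enzymes that hydroxylate and crosslink collagen were followed in the lens epithelium of mice whose lenses overexpress TGF-β1. They are 10 of the 50763 genes of the count table, chosen by symbol. The lysyl oxidase Lox and its relatives Loxl1, Loxl2, Loxl3 and Loxl4 are among them, together with the lysyl hydroxylases Plod1, Plod2 and Plod3, the prolyl 4-hydroxylase subunit P4ha1 and the transglutaminase Tgm2. Epithelia of mice at 3 weeks of age gave 3 WT, 3 OVE853 and 4 OVE918 RNA-seq libraries, all on the FVB/N background. OVE853 and OVE918 are separate families of homozygous transgenic mice, in which the murine αA-crystallin promoter, active in lens cells, drives a constitutively active human TGF-β1 that the cells secrete. WT mice carried no transgene. Each WT or OVE853 library was a pool from up to 9 mice and each OVE918 library a pool from up to 7 mice of both sexes, so that p-values measure the spread between pools and not between animals. The transgenic epithelia held an anterior subcapsular plaque, and the whole explant was extracted. The part of a value that comes from the plaque cannot be told apart from the rest, and neither can fewer cells of a type be told apart from less RNA per cell.

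Collagen chains are modified inside the cell before they are secreted. Prolyl 4-hydroxylases, of which P4ha1 encodes a catalytic subunit, make the hydroxyproline that stabilizes the collagen helix, and lysyl hydroxylases make the hydroxylysine that carries sugars and yields mature crosslinks. Outside the cell, the copper-dependent lysyl oxidases oxidize lysine and hydroxylysine so that neighbouring chains become covalently joined, and Tgm2 joins glutamine to lysine in fibronectin and other matrix proteins. The lens epithelium rests on a capsule that is a thick basement membrane rich in type IV collagen, and TGF-β is a known driver of fibrotic matrix in this tissue.

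Tgm2 was elevated in both transgenic lines, 3.75-fold in OVE853 and 5.93-fold in OVE918. Lox, a gene of low level in this tissue, was 3.79-fold and 4.33-fold higher. Plod1, Plod2, Plod3 and Loxl2 were higher in OVE853 by 1.60-fold to 1.69-fold, and Plod3 and P4ha1 were higher in OVE918 by 1.49-fold and 1.72-fold. Loxl1, Loxl3 and Loxl4 passed the test in neither line. Between the lines no enzyme passed edgeR's test with all libraries in the fit, while the alternative DESeq2 passed Plod2. The plot of levels by library shows each of these values.

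**Figure D1:**
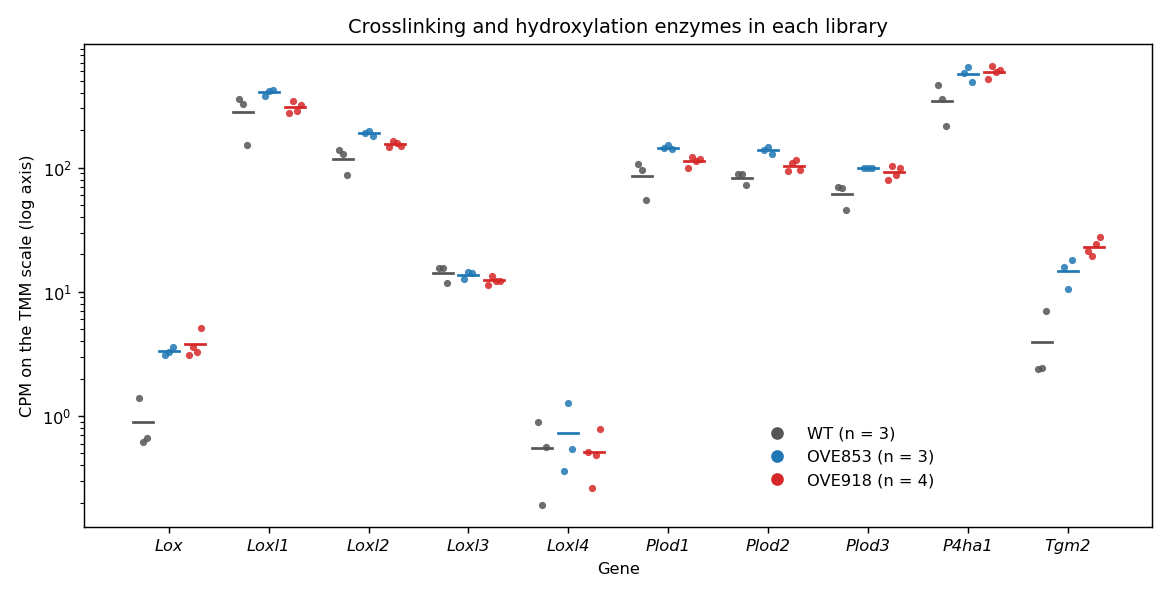
Level of each of the 10 enzymes in each library, in CPM (read counts scaled to library size) on the TMM scale with a log axis. Points are libraries and short lines are group means, in grey for WT (n = 3), blue for OVE853 (n = 3) and red for OVE918 (n = 4). All transgenic libraries lie above the WT libraries for Lox and Tgm2, and the lowest WT point of Loxl1, Plod1 and P4ha1 is WT replicate 3.

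Levels are read counts scaled to library size (CPM) with edgeR's TMM factors, and ± marks the SD between libraries. A single quasi-likelihood model in edgeR held the 3 groups, and its p-values were adjusted over all genes tested by the Benjamini-Hochberg method (FDR). Differentially expressed genes (DEGs) met an FDR limit of 0.05 and differed by 1 or more on the log2 scale, and a gene is said to pass the FDR limit alone where only the first held. A filter of at least 2 FPKM in 5 of the 10 libraries, with exon lengths from GENCODE, left 11094 genes and 8 of the 10 enzymes. Lox and Loxl4 reached 2 FPKM in 0 libraries. Tgm2 reached it in 7 libraries, all of them transgenic, and so entered this test only through the groups in which it was high. edgeR's own count filter left 18058 genes and all 10 enzymes, and it gives the values of Lox, Loxl4 and Tgm2 here. Tgm2 had 53 to 201 counts and Lox 16 to 31 counts in the WT libraries.

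With the count filter, 2 of the 10 enzymes (Lox and Tgm2) were elevated DEGs in OVE853, where 3.17% of all genes tested were, and 6 passed the FDR limit alone in the upward direction, where 6.54% of all genes did. In OVE918 the same counts were 2 of 10 (again Lox and Tgm2) against 3.45%, and 4 of 10 against 6.85%. Leaving out OVE853 replicate 1 or 2 gave 3 enzymes past the limit in OVE853 and leaving out replicate 3 gave 2, of which 1 (Lox) was a DEG. In these fits 4.99%, 6.41% and 4.75% of all genes passed in either direction. Without OVE918 replicate 2 or 4 there were 2 enzymes in OVE918, beside 14.5% and 14.9% of all genes. The counts without WT replicate 3 were again 2 and 6 in OVE853 and 2 and 4 in OVE918, where 9.67% and 13.7% of all genes passed the FDR limit in either direction. With the FPKM filter Tgm2 was the 1 DEG in each line, where 2.51% of all genes were elevated DEGs in OVE853 and 2.58% in OVE918, and nothing is read from that count since the filter kept Tgm2 through its high groups. The other 7 enzymes tested had at least 2 FPKM in every library, and of these 4 passed the FDR limit upward in OVE853, against 8.10% of all genes, and 2 in OVE918, against 8.00%. No enzyme passed either rule in the downward direction. The median log2 fold change of the 10 enzymes with the count filter was 0.71 in OVE853 and 0.41 in OVE918, beside -0.005 and 0.01 over all genes tested, and without WT replicate 3 it was 0.47 and 0.22. The WT libraries serve both comparisons, so the counts are not independent.

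All OVE853 libraries lay above all WT libraries for 6 of these 7 enzymes (each except Loxl3), which held for 23.4% of the genes tested. All OVE918 libraries lay above the WT libraries for 4 of the 7 (Loxl2, Plod2, Plod3 and P4ha1), against 12.3% of genes. In the plot of fold changes, intervals of Lox and Tgm2 lie wholly above 1 on the log2 scale in both lines, while those of the other enzymes reach below 1 or to it.

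**Figure D2:**
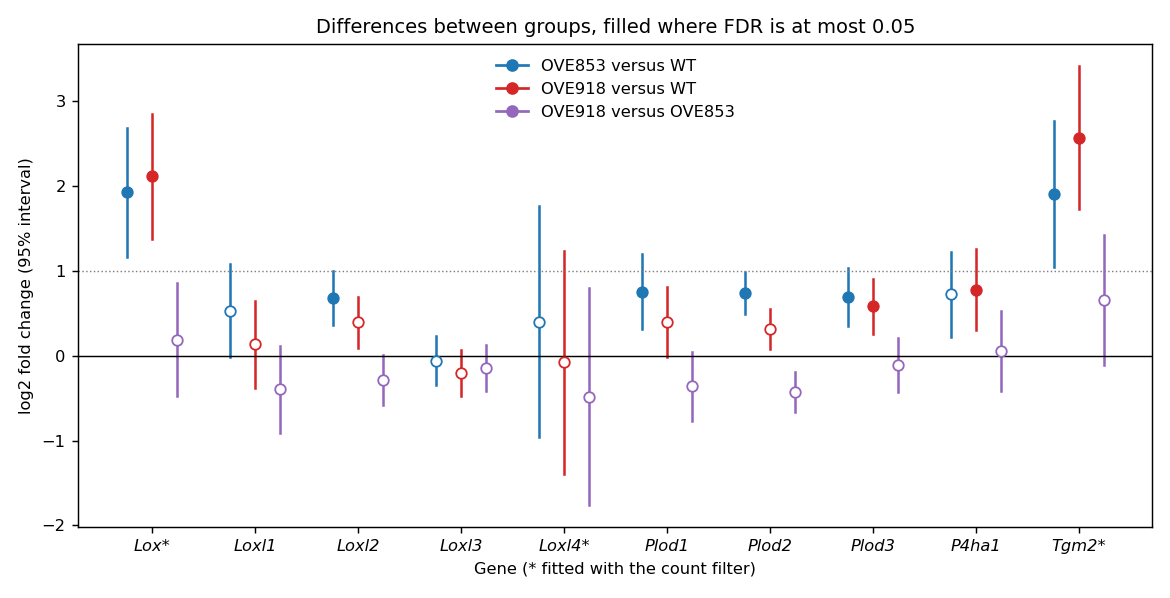
Log2 fold change of each enzyme with its 95% interval, for OVE853 against WT (blue), OVE918 against WT (red) and OVE918 against OVE853 (purple), from edgeR's quasi-likelihood fit. Filled points passed an FDR of 0.05, the dotted line marks a log2 fold change of 1, and the starred genes Lox, Loxl4 and Tgm2 were fitted with the count filter. Filled points occur in the comparisons with WT, and every point of the comparison between the lines is open.

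Library totals ran from 24073311 to 31908525 counts and TMM factors from 0.88 to 1.11. Per the study, the mouse Tgfb1 row holds reads of the endogenous gene together with reads of the human transgene, and their shares were not tested. It was 6.43-fold higher in OVE853 and 14.3-fold higher in OVE918 than in WT, and 2.22-fold higher in OVE918 than in OVE853, with an FDR of at most 0.00388 in edgeR's test. Lens epithelial markers (Pax6, Foxe3, Cdh1, Cryaa, Cryab, Gja1, Pdgfra) were detected in every library, with Pax6 at 356 to 473 CPM. Gja1 was 4.93-fold lower in OVE853 and 8.15-fold lower in OVE918 (edgeR FDR at most 1.17e-05, count filter), and Cdh1 1.69-fold and 1.51-fold lower. Of the 7 markers, 2 passed the FDR limit in each line, both downward. By sign alone 3 were higher and 4 lower in OVE853, and 2 higher and 5 lower in OVE918. The fibroblast genes Dcn, Lum and Dpt were at most 2.35 CPM in any library, Pdgfrb was at 83.0 to 140.6 CPM, and Thy1 at 57.9 CPM in WT replicate 3 and 1.02 to 7.41 CPM in the others. With the count filter, all 4 markers of non-pigmented ciliary epithelium were lower DEGs in both lines, beside 3.72% and 5.34% of all genes. They summed to 198 to 321 CPM in WT, 60.8 to 72.2 in OVE853 and 24.1 to 44.1 in OVE918. Of 4 Müller glia markers, 4 and 3 were lower DEGs, with sums of 1555 to 3971, 800 to 1020 and 409 to 677 CPM. The study lists Best2, Slc6a13 and Wfdc1 of the ciliary markers and Rlbp1 of the Müller glia markers among its top reduced genes. That list came from these same libraries, so nothing is read from these marker counts. The sums of both marker lists moved with the groups, and their part in the enzyme results was not tested. WT replicate 3 stood apart. Retinal neuron markers summed to 785 CPM there against 86.8 on average in the other WT libraries, with 7 of 7 genes highest in it, and Müller glia markers summed to 3971 against 1650 CPM. Of the 10 enzymes, 7 had their lowest WT level in this library, as did 38.4% of all genes tested, whereas Tgm2 had its highest. Estimates of the enzymes are therefore also given without it.

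P4ha1 (chr10:59159092-59209126, GRCm39) supplies the catalytic subunit of prolyl 4-hydroxylase. It was the most abundant of the 10 enzymes per kilobase of exon, at 108 ± 38.0 FPKM in WT, 178 ± 24.5 in OVE853 and 184 ± 18.0 in OVE918. Its levels were 458, 359 and 216 CPM in the WT libraries, 575, 644.5 and 488 CPM in OVE853, and 519, 658, 583 and 605 CPM in OVE918. The transgenic libraries were all higher than the WT libraries, and the ratio of the highest to the lowest WT library was larger than the ratio of the group means. P4ha1 was 1.72-fold higher in OVE918 (log2 fold change 0.78, SE 0.22, edgeR FDR 0.0284). In OVE853 the estimate was 1.65-fold (0.72, SE 0.23), which missed the FDR limit in edgeR's test (0.0532). Without WT replicate 3 the estimates were 0.48 (edgeR FDR 0.0804) and 0.53 (0.0352) on the log2 scale. In OVE918 the FDR limit was missed without WT replicate 2 (0.0688) and without OVE918 replicate 2 (0.0617), 3 (0.0589) or 4 (0.0568) and in a fit of the groups compared (0.0687). In OVE853 it was met without WT replicate 1 (0.0112) and in DESeq2 (0.0144).

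Plod1 (chr4:147991574-148021356), Plod2 (chr9:92424119-92490494) and Plod3 (chr5:137015827-137025502) encode the lysyl hydroxylases. Plod2 is known for hydroxylating the collagen telopeptides, where crosslinks form, Plod1 acts on the helical part, and the Plod3 product also adds sugars to hydroxylysine. Plod2 was at 88.0, 88.3 and 72.8 CPM in WT, at 138.0, 147.7 and 129.5 CPM in OVE853, and at 93.1, 109.5, 114.3 and 94.95 CPM in OVE918. The groups did not overlap, and OVE918 lay between WT and OVE853. The OVE853 difference was 1.67-fold (log2 0.74, SE 0.11) with an edgeR FDR of 0.00192, and it passed the limit in each of the 10 fits that left out a library. In OVE918 Plod2 was 1.24-fold of WT (log2 0.31, SE 0.11), with an edgeR FDR of 0.0652, and it passed in DESeq2 (0.0323), with upper-quartile normalization (0.0414) and without OVE918 replicate 4 (0.048). The estimates of Plod2 without WT replicate 3 were 0.65 (edgeR FDR 0.00413) and 0.22 (edgeR FDR 0.209) on the log2 scale.

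Plod3 levels were 70.1, 69.0 and 45.7 CPM in WT, 98.6, 99.5 and 99.8 CPM in OVE853, and 79.5, 103, 87.6 and 98.4 CPM in OVE918. Both transgenic groups stood above WT and overlapped each other. Plod3 was 1.61-fold higher in OVE853 (log2 0.69, SE 0.16, edgeR FDR 0.0147) and 1.49-fold higher in OVE918 (log2 0.58, SE 0.15, edgeR FDR 0.0191). With WT replicate 3 left out these were 0.51 and 0.40 on the log2 scale and still passed the limit, at 0.0145 and 0.0275. The OVE853 result missed the limit without OVE853 replicate 1 (0.0573) or 3 (0.0593), and the OVE918 result in a fit of the groups compared (0.0614).

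Plod1 was at 106, 96.5 and 54.5 CPM in WT, 143, 152 and 140 CPM in OVE853, and 99.7, 121.5, 112 and 118 CPM in OVE918. OVE853 stood above both other groups, and OVE918 overlapped WT. Plod1 was 1.69-fold higher in OVE853 (log2 0.76, SE 0.20, edgeR FDR 0.0284) and 1.32-fold of WT in OVE918 (log2 0.40, SE 0.19, edgeR FDR 0.166). The OVE853 estimate without WT replicate 3 was 0.51 on the log2 scale with an FDR of 0.0108, and the OVE918 estimate was 0.15. The OVE853 result missed the limit when OVE853 replicate 1, 2 or 3 was left out, with an FDR of 0.0833 to 0.0872, with no filter on low counts (0.0572) and in a fit of the groups compared (0.0802).

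The regions around the start sites of Plod1, Plod3 and P4ha1 are printed because these are the enzymes that passed the FDR limit in at least 1 line and have a sequence in the table. RefSeq promoter sequences (GRCm38.p6, not the GRCm39 build of the counts) matched 4 of the 10 enzymes, the other being Loxl4. Each runs 5′ to 3′ on the strand of the gene, from 250 bases before the start to 50 after it, and capitals mark 3 motifs searched on both strands, namely the core of the hypoxia response element (ACGTG), the CCAAT box (CCAAT) and the GC box (GGGCGG).
Plod1, chr4:147936727-147937026, minus strand: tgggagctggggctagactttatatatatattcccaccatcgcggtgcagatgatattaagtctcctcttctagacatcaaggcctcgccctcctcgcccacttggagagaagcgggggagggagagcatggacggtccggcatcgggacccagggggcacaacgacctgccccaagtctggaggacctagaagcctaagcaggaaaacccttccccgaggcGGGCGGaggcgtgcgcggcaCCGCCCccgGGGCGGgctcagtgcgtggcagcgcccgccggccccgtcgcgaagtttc
Plod3, chr5:136986769-136987068, plus strand: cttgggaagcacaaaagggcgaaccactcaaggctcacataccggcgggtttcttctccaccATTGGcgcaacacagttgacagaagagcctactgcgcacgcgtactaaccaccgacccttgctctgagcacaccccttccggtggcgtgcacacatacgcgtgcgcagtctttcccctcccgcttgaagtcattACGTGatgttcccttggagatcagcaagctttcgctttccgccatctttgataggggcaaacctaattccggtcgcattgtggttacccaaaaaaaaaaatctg
P4ha1, chr10:59323046-59323345, plus strand: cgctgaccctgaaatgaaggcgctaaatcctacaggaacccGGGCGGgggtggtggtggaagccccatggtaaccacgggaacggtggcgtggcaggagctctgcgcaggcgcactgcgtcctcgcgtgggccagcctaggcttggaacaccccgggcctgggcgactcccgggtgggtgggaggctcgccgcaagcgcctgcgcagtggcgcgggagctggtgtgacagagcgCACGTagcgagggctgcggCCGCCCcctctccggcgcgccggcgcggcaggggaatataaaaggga
The hypoxia response core occurred at base 197 of the Plod3 region and at base 235 of the P4ha1 region, counted from the 5′ end, and not in that of Plod1. It is found in 19.6% of the 32851 promoters of the table. The GC box occurred 3 times for Plod1 and 2 times for P4ha1, and 35.7% of promoters hold it. Plod3 held the CCAAT box, which 37.4% of promoters hold. CAGAC, a Smad-binding element, occurred in the Plod1 region and in 49.6% of promoters, and the AP-1 site TGANTCA in none of the 3 regions and in 7.81% of promoters. These matches are a description of the letters and were not tied to the levels.

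The lysyl oxidases differed widely in level. Per kilobase of exon, Loxl1 made up 75.3% ± 4.53 (SD, n = 3) of the family's summed FPKM in WT, 75.3% ± 1.26 (n = 3) in OVE853 and 73.5% ± 1.46 (n = 4) in OVE918. Loxl2 came next with 21.1% ± 3.59, 22.1% ± 1.30 and 23.4% ± 1.45, followed by Loxl3 with 3.36% ± 0.868, 2.07% ± 0.0601 and 2.41% ± 0.0816. Lox, the founding member of the family, was 0.175% ± 0.0631, 0.435% ± 0.0222 and 0.630% ± 0.135, and Loxl4 was at most 0.157% in any library. The order of the family was thus the same in the 3 groups, and the ranges of Loxl1, Loxl2, Loxl3 and Lox did not meet within a group. Among the lysyl hydroxylases no gene dominated. In OVE918, Plod3 took 38.0% ± 2.09 and Plod2 35.7% ± 2.64, ranges that overlap. In WT Plod2 took 39.3% ± 4.41 and Plod3 34.2% ± 0.878, and in OVE853 39% ± 1.16 and 33.5% ± 1.27. The Plod2 share was 44.3% in WT replicate 3 against 36.1% and 37.5% in the other WT libraries.

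**Figure D3:**
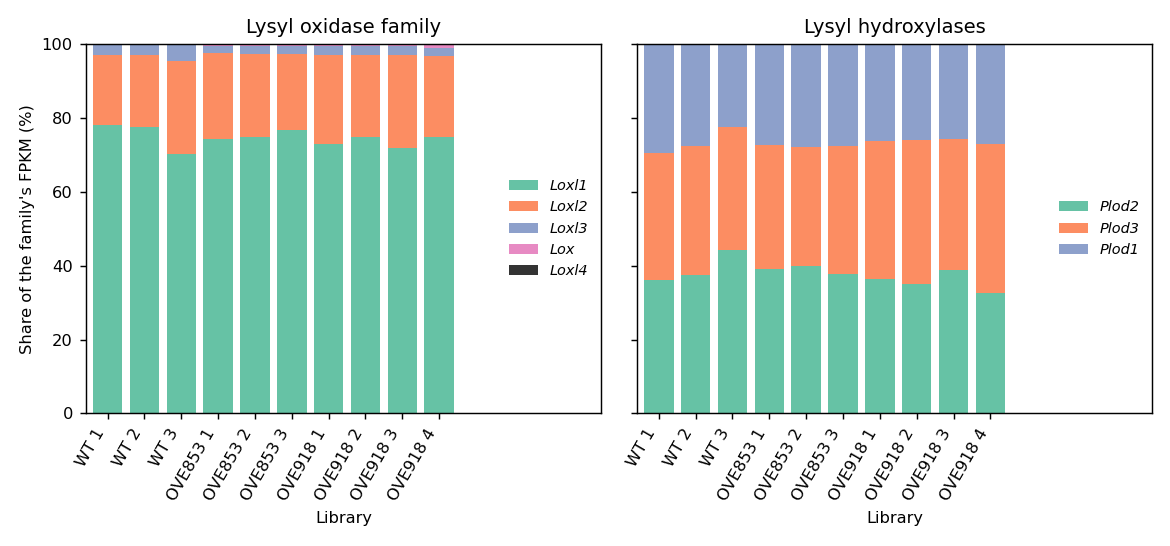
Share of each gene in the summed FPKM of the lysyl oxidase family (left) and of the lysyl hydroxylases (right), in percent, for each library. Loxl1 takes 70.1% to 78.2% of the lysyl oxidase family in every library, and Lox and Loxl4 are thin or invisible bands at the top.

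Lox (chr18:52649136-52663110) encodes lysyl oxidase itself. The libraries held 31, 16 and 19 counts in WT, 103, 89 and 106 in OVE853, and 72, 97, 88 and 111 in OVE918. On the TMM scale these were 1.39, 0.616 and 0.666 CPM in WT, 3.11, 3.30 and 3.61 CPM in OVE853, and 3.08, 3.61, 3.27 and 5.12 CPM in OVE918. All 7 transgenic libraries were above all WT libraries, and the lines overlapped each other. The difference was 3.79-fold in OVE853 (95% interval 2.24 to 6.43, edgeR FDR 0.00588) and 4.33-fold in OVE918 (2.60 to 7.21, edgeR FDR 0.00156). It passed the FDR limit in each of the fits that left out 1 of the 10 libraries, with log2 fold changes of 1.71 to 2.39 in OVE853 and 1.92 to 2.58 in OVE918. At a mean of 0.699 FPKM in OVE853 and 0.789 in OVE918, against 0.186 in WT, Lox stayed far below Loxl1, whose means were 121, 92.0 and 83.8 FPKM in the same order.

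Loxl1 (chr9:58195014-58220495), which is known for its part in elastic fibres, was at 359, 325 and 153 CPM in WT, 379, 410 and 419 CPM in OVE853, and 277, 343, 284 and 320 CPM in OVE918. OVE853 was above every WT library, while OVE918 lay within the WT range. The estimate was 1.44-fold in OVE853 (log2 0.53, SE 0.25, edgeR FDR 0.159) and 1.10-fold in OVE918 (log2 0.14, SE 0.23, edgeR FDR 0.732). Without WT replicate 3, whose level was 55.4% below the mean of the other WT libraries, the estimates were 0.24 and -0.16 on the log2 scale, so that the sign in OVE918 changed.

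Loxl2 (chr14:69846209-69933283), which crosslinks type IV collagen of basement membranes, was at 137, 129 and 87.7 CPM in WT, 188, 198 and 180 CPM in OVE853, and 146, 164, 158 and 150 CPM in OVE918. The groups did not overlap, with OVE918 in the middle. Loxl2 was 1.60-fold higher in OVE853 (log2 0.68, SE 0.15, edgeR FDR 0.0118) and 1.31-fold of WT in OVE918 (log2 0.39, SE 0.14), where it missed the limit in edgeR (FDR 0.0692). The OVE853 result had an FDR of 0.0508 without OVE853 replicate 1, and the OVE918 result passed without WT replicate 1 (0.0273) and in DESeq2 (0.0346). Without WT replicate 3 the estimates were 0.50 and 0.22 on the log2 scale.

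Loxl3 (chr6:83011152-83029543) was between 11.3 and 15.5 CPM in every library, and the 3 groups overlapped. Its 95% interval of the fold change was 0.787 to 1.17 in OVE853 and 0.721 to 1.05 in OVE918, with an edgeR FDR of 0.779 and 0.286. Loxl4 (chr19:42580711-42601252) had 5 to 34 counts per library, and at this depth its intervals, 0.513-fold to 3.40-fold in OVE853 and 0.379-fold to 2.36-fold in OVE918, leave room for a change of either sign.

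Tgm2 (chr2:157958322-157988359), the tissue transglutaminase, was at 2.37, 2.42 and 7.05 CPM in WT, 15.7, 10.5 and 18.0 CPM in OVE853, and 21.5, 19.3, 24.0 and 27.7 CPM in OVE918. The 3 groups did not overlap, and WT replicate 3 was the highest of its group, 2.94 times the mean of the other WT libraries. Tgm2 averaged 3.95 ± 2.69 CPM in WT, 14.8 ± 3.85 in OVE853 and 23.1 ± 3.63 in OVE918. Its log2 fold change with the count filter was 1.91 (SE 0.39, edgeR FDR 0.0123) in OVE853 and 2.57 (SE 0.38, edgeR FDR 0.00136) in OVE918, and without WT replicate 3 it was 2.59 (edgeR FDR 0.000112) and 3.27 (edgeR FDR 1.07e-05). Without OVE853 replicate 3, Tgm2 missed the limit in OVE853 (log2 fold change 1.72, edgeR FDR 0.0517). The 3 tested genes whose log2 CPM followed Tgm2 most closely over the 10 libraries were Tnc (Pearson r 0.993, Spearman rho 0.988), Adcy5 (0.983 and 0.842) and Hs3st5 (0.981 and 0.952). These 10 points share their groups, and the values describe the pattern only.

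Tgm2 is also known from macrophages and endothelium. The 10 macrophage markers summed to 21.0 to 52.3 CPM in WT, 44.0 to 74.2 in OVE853 and 33.4 to 90.4 in OVE918, with Ptprc at 0.154 to 1.09 CPM and no marker at 0 in all libraries. With the count filter 0 of these 10 genes were DEGs in OVE853 and 2 (Cd68 and C1qa) were elevated DEGs in OVE918, beside 3.17% and 3.45% of all genes. The 7 endothelial markers summed to 25.4 and 22.2 CPM in WT replicates 1 and 2, to 118 CPM in WT replicate 3, of which Kdr made up 113, and to 20.2 to 35.4 in OVE853 and 22.2 to 33.5 in OVE918. Cdh5 was an elevated DEG in OVE853 (4.72-fold), beside 3.17% of all genes. In OVE918 4 of the 7 (Cdh5, Pecam1, Tie1 and Cldn5) were, at 3.38-fold to 4.10-fold, beside 3.45%. The lowest WT levels of Cdh5 (0.28 CPM) and Tie1 (0.23 CPM) fell short of the count filter. Both entered the test through the transgenic groups, so nothing is read from their part in these counts. The part of macrophages and endothelium in the Tgm2 result was not tested.

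Between the lines, 0 of the 8 enzymes tested with the FPKM filter passed the FDR limit, where 1.32% of all genes did, and 0 of 10 with the count filter, where 0.377% did. At an unadjusted p under 0.05 there was 1 (Plod2), and DESeq2 likewise passed 1 (Plod2, FDR 0.0104). Plod2 was 1.34-fold lower in OVE918 than in OVE853 (log2 fold change -0.43, 95% interval -0.66 to -0.20, edgeR FDR 0.0745). All OVE918 libraries lay below all OVE853 libraries for 4 of 8 enzymes, Loxl1, Loxl2, Plod1 and Plod2, which held for 16.2% of the genes tested. The log2 differences of the other 3 were -0.40, -0.29 and -0.36. For Tgm2 the direction was opposite, with each OVE918 library above each OVE853 library and a 1.58-fold difference (95% interval 0.931 to 2.68, edgeR FDR 0.345, count filter). P4ha1 differed by 1.04-fold (0.752 to 1.44), Plod3 by 0.927-fold (0.744 to 1.16) and Lox by 1.14-fold (0.721 to 1.81), intervals that bound each of these differences. Without WT replicate 3, which is in neither line but adds to the shared estimate of spread, Loxl1 (edgeR FDR 0.0495), Plod1 (0.0463) and Plod2 (0.0321) passed the limit, and the share of all genes that did so rose to 4.11%. With the count filter they missed it in that fit, at 0.0768, 0.075 and 0.0518. In DESeq2, where Plod2 passed, 8.63% of all genes did.

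The plot of fold changes with and without WT replicate 3 sets this library's weight beside each enzyme. Leaving it out lowered the estimates of Lox, Loxl1, Loxl2, Loxl3, Plod1, Plod2, Plod3 and P4ha1 in both lines and raised those of Tgm2. The part of retinal material in the levels of this library was not tested.

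**Figure D4:**
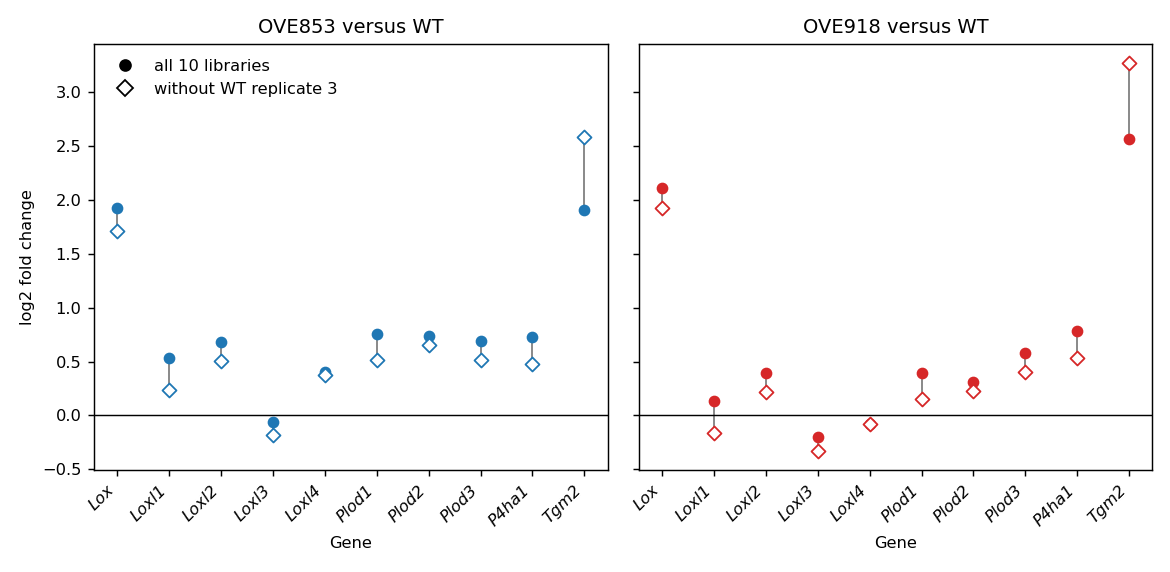
Log2 fold change of each enzyme in OVE853 (left, blue) and OVE918 (right, red) against WT, with all 10 libraries (filled circles) and without WT replicate 3 (open diamonds). Lox, Loxl4 and Tgm2 are from the count filter and the others from the FPKM filter. Tgm2 moves up from 1.91 to 2.59 and from 2.57 to 3.27, while Loxl1 moves down from 0.53 to 0.24 and from 0.14 to -0.16.

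The enzymes work with partners and substrates that were counted as lists with the count filter, and the lists share the WT libraries with the enzymes. Of 14 genes for prolyl hydroxylation, collagen folding and glycosylation, all tested, 4 passed the FDR limit upward and 2 downward in OVE853, beside 6.54% and 7.02% of all genes. In OVE918 they were again 4 and 2, beside 6.85% and 10.0%. P3h2, a prolyl 3-hydroxylase of type IV collagen, was at 46.3, 37.7 and 10.5 CPM in WT, against 110.2 to 147.5 CPM in OVE853 and 82.75 to 120.4 CPM in OVE918. The groups with and without the transgene did not overlap, and WT replicate 3 was the lowest library. P3h2 was an elevated DEG in both lines, with log2 fold changes of 2.04 (SE 0.44, edgeR FDR 0.018) and 1.62 (SE 0.42, edgeR FDR 0.0271), and of 1.59 and 1.19 without WT replicate 3. P4hb, the shared subunit of prolyl 4-hydroxylase, passed the FDR limit at 1.30-fold and 1.28-fold. Ppib, a proline isomerase of collagen folding, passed in OVE918 at 1.58-fold and missed the limit in OVE853 (edgeR FDR 0.0584). Colgalt2, a collagen galactosyltransferase, was 1.59-fold and 1.69-fold lower and P3h3 1.34-fold and 1.73-fold lower. The collagen chaperone Serpinh1 did not pass, with log2 fold changes of 0.147 and 0.033. The list counts without WT replicate 3 were 1 upward and 1 downward in OVE853 and 2 and 2 in OVE918, and P4hb missed the limit in both lines (edgeR FDR 0.121 and 0.093).

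Of 8 genes of procollagen processing, all tested, 3 were elevated DEGs in OVE853 (Adamts3, Tll2 and Adamts14), beside 3.17% of all genes. In OVE918 there were 2 (Tll2 and Adamts14), beside 3.45%. Bmp1, the procollagen C-proteinase, which also activates lysyl oxidase, passed the FDR limit at 1.82-fold and 1.91-fold, and at 1.63-fold and 1.73-fold without WT replicate 3. Its relative Tll2 was an elevated DEG with log2 fold changes of 2.05 and 2.67. Adamts14, a procollagen N-proteinase, had 0 counts in every WT library and 4 to 21 counts in the transgenic libraries. It entered the test through the transgenic groups, so nothing is read from its part in the list counts. Without WT replicate 3 the elevated DEGs of this list, Adamts14 included, numbered 2 in OVE853, where Adamts3 missed the limit, and 3 in OVE918. All DEGs of either direction in that fit numbered 915 and 1344 of 18455 genes. Pcolce2 joined in OVE918, where its log2 fold change went from -0.25 (edgeR FDR 0.815) to 1.26 (0.0342). It had 16, 31 and 185 counts in WT, the last in replicate 3, so its call rests on leaving out that library. Of 9 other crosslinking enzymes 5 were tested, and 1 was a lower DEG in each line, beside 3.72% and 5.34% of all genes. This was F13a1, the A chain of coagulation factor XIII and itself a transglutaminase. It had 60, 51 and 39 counts in the WT libraries and 0 to 3 counts in each transgenic library. F13a1 thus entered the test through the WT group, in which it was high, and nothing is read from this count. Pxdn, the peroxidase that forms sulfilimine bonds in type IV collagen, had log2 fold changes of 0.74 and 0.50 and an edgeR FDR of 0.109 and 0.233, and without WT replicate 3 the estimates were 0.42 and 0.20. Among 5 genes of copper and ascorbate supply, the copper importer Slc31a1 passed the FDR limit at 1.32-fold and 1.25-fold, and missed it in both lines without WT replicate 3 (edgeR FDR 0.0733 and 0.0959).

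**Figure D5:**
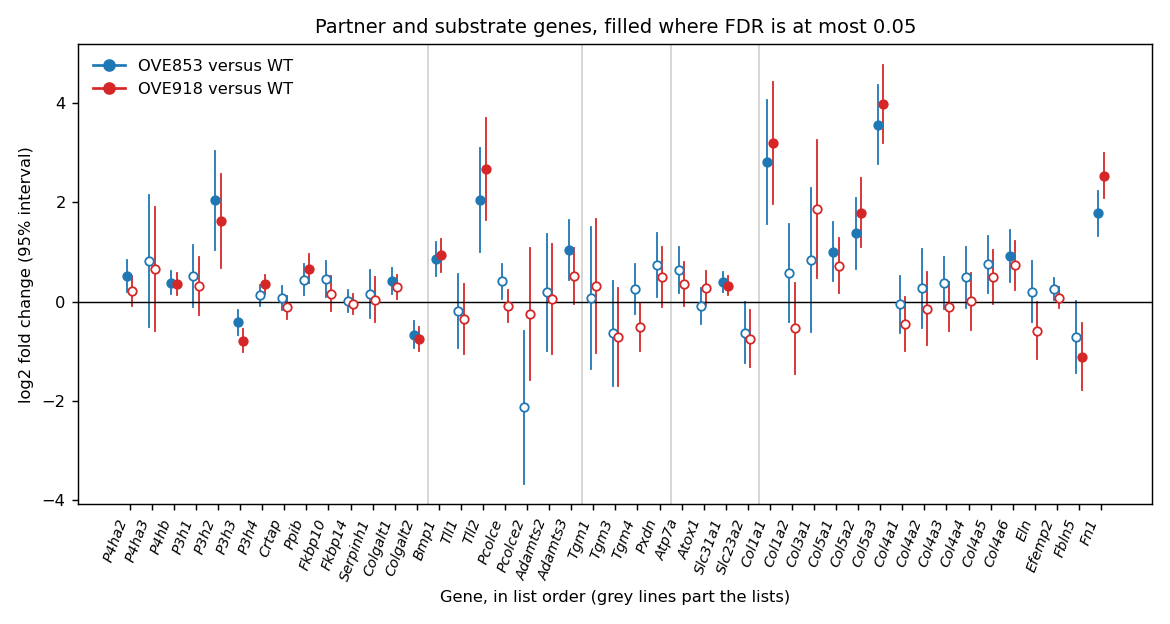
Log2 fold change with 95% interval of the partner and substrate genes that passed the count filter, for OVE853 (blue) and OVE918 (red) against WT, with filled points at an FDR of at most 0.05. Adamts14 and F13a1, at 3 counts or fewer in every library of a group, are not drawn, and grey lines part the lists, from left to right collagen hydroxylation and folding, procollagen processing, other crosslinking enzymes, cofactor supply and substrates. Col5a3, Col1a1, Col5a2, Fn1, P3h2 and Tll2 reach log2 fold changes over 1 in both lines.

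Of 16 substrate genes, all tested, 5 were elevated DEGs in OVE853, beside 3.17% of all genes, and 4 were elevated and 1 (Fbln5, of elastic fibres) was a lower DEG in OVE918, beside 3.45% and 5.34%. Col5a3, Col1a1 and Fn1 reached 2 FPKM on average in the transgenic groups only, so their values too are those of the count filter. The fibrillar collagen gene Col5a3 had 32, 38 and 65 counts in WT and 388 to 908 counts in the transgenic libraries, with log2 fold changes of 3.57 (edgeR FDR 0.000255) and 3.99 (6.34e-05). Col1a1 had 104 to 176 counts in WT and 608 to 1783 in the transgenic libraries, with log2 fold changes of 2.81 (edgeR FDR 0.0126) and 3.20 (0.00378). Col1a2, the other chain of type I collagen, was more abundant in WT, at 51.7 to 173.9 CPM against 3.65 to 7.87 for Col1a1. It passed in neither line, with log2 fold changes of 0.57 (edgeR FDR 0.398) in OVE853 and -0.54 (0.402) in OVE918. The fibronectin gene Fn1, whose product is a substrate of Tgm2, was 3.43-fold and 5.83-fold higher, and Col5a1 was 2.01-fold higher in OVE853. All transgenic libraries lay above all WT libraries for Col5a3, Col1a1 and Fn1. DEGs among the substrates in OVE853 without WT replicate 3 were 2, Col5a3 and Fn1, with Col1a1 at an edgeR FDR of 0.0662 and Col5a1 at 1.61-fold, and OVE918 again had 4 elevated and 1 lower. The basement membrane chains Col4a1 and Col4a2, far more abundant at 7292 to 15800 and 3028 to 9731 CPM in WT, did not pass, with log2 fold changes of -0.06 and 0.27 in OVE853 and -0.46 and -0.14 in OVE918. Without WT replicate 3 these were -0.36 and -0.13 in OVE853 and -0.73 and -0.52 in OVE918, and Col4a1 passed the limit in OVE918 (edgeR FDR 0.0135). Col4a6 passed the FDR limit at 1.89-fold in OVE853 and missed it in OVE918 (1.66-fold, edgeR FDR 0.0503). The elastin gene Eln did not pass with all libraries, with log2 fold changes of 0.20 and -0.59, and was lower in OVE918 without WT replicate 3 (-0.88, edgeR FDR 0.00539).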

How the data were processed

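Total RNA of pooled lens epithelia was sequenced as paired 150 bp reads in 10 libraries (3 WT, 3 OVE853, 4 OVE918). The authors used Cutadapt (5.2) for trimming and STAR (2.7.11b) for alignment to GRCm39, and counted read pairs per RefSeq gene with featureCounts (2.0.8) in reverse-stranded mode. They deposited raw counts per gene, without normalization, and 0 value columns lacked a sample. Total counts limit the precision of low genes such as Loxl4. Columns were matched to samples through their descriptions.

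Counts were fitted in R 4.3.3 with edgeR 4.0.16 (TMM, quasi-likelihood with robust estimation, 3 groups, 3 contrasts, Benjamini-Hochberg adjustment). FPKM for the filter used exon lengths of GENCODE Primary transcripts, matched by symbol for 43252 genes and by synonym for 22, while 7489 genes had no length and could not pass that filter. DESeq2 1.42.0 was an alternative, and steps were tested on simulated data. Log2 CPM for likeness used a prior count of 2.

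The 10 enzymes and the lists of partners and markers were chosen with earlier results of these data known. The text names all 10 enzymes, partner list genes that were DEGs, at most 6 a list by smallest FDR, and the 3 tested genes closest to Tgm2. Other list genes, P4hb, Ppib, Colgalt2, P3h3, Serpinh1, Bmp1, Pcolce2, Pxdn, Slc31a1, Col1a2, Col4a1, Col4a2, Col4a6 and Eln, were named for their known roles or calls after their values were seen, as were marker genes. The minimum of 5 libraries follows the R script of the study, and 6 libraries were an alternative. Alternatives were other filters, normalizations, DESeq2, fits of the groups compared, a replicate block, no robust estimation, FDR alone and leaving out each library.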

Additional observations from a re-analysis of the deposited data

How the results depend on the processing

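With Lox and Loxl4 in the test, 2 enzymes were DEGs in each line, both with the count filter and with no filter. With the FPKM filter and by FDR alone the counts were 5 in OVE853 and 3 in OVE918, beside 15.8% and 19.0% of all genes in either direction. Tgm2 is in these counts and in the others of each line against WT with the FPKM filter. That filter kept Tgm2 through its high groups, so nothing is read from its part in them. Without each library in turn, enzyme DEGs numbered 1 (Tgm2) in every OVE853 fit and 1 to 2 in OVE918, where P4ha1 joined without WT replicate 1. All DEGs in these fits numbered 334 to 664 in OVE853 and 522 to 728 in OVE918. Enzymes past the FDR limit numbered 2 to 6 in OVE853 (2, Plod2 and Tgm2, without OVE853 replicate 1, and 3 without replicate 3), 2 to 4 in OVE918 and 0 to 3 between the lines. The share of all genes past it in these fits was 6.58% to 23.2% in OVE853, 13.5% to 22.2% in OVE918 and 0.0641% to 4.77% between the lines. In OVE918 the enzymes past it were 5 with DESeq2, beside 24.6% of all genes, and 1 (Tgm2) in a fit of the groups compared, beside 12.3%. Between the lines DESeq2 gave 1, beside 8.63%. With the count filter, fits without a library gave 1 to 2 DEGs in OVE853 and 2 to 3 in OVE918, and 2 to 7 and 2 to 5 enzymes past the FDR limit. The share of all genes past it was 4.75% to 20.5% and 12.1% to 20.6%. DESeq2 passed 1 enzyme between the lines with this filter, beside 5.89% of all genes. The cause was not tested. With the FPKM filter, partner and substrate DEGs of either direction numbered 5 in OVE853 and 4 in OVE918, beside 4.43% and 5.59% of all genes. Nothing is read from these counts, since Col1a1, Col5a3 and Fn1 among them reached 2 FPKM on average in the transgenic groups only. Partner and substrate DEGs became 10 and 9 with the count filter, Adamts14 and F13a1 included, beside 6.89% and 8.79%. They were 8 and 8 with no filter, and 14 and 12 by FDR alone with the FPKM filter, beside 15.8% and 19.0%. In OVE853 they were 3 in a fit of the groups compared and 3 to 6 without a library, the lowest without OVE853 replicate 3, and in OVE918 3 to 4. Small estimates changed sign in some fits. Without a library, Loxl3 in OVE853 ranged from -0.183 to 0.005 on the log2 scale, with 0.004 and 0.005 without WT replicate 1 and 2. Loxl1 in OVE918 ranged from -0.161 (without WT replicate 3) to 0.357, and P4ha1 between the lines from -0.038 to 0.154, with -1.4e-04 without OVE918 replicate 2. Loxl4 ranged from -0.250 to 0.927 in OVE853 (-0.007 without WT replicate 2), from -0.472 to 0.446 in OVE918 (0.142 without OVE918 replicate 2) and from -0.788 to 0.172 between the lines. Over all enzymes, contrasts and alternatives, 499 estimates kept their direction and side of the limit, 14 lost the limit, 11 gained it and 10 changed sign.

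Deviations of libraries with the same replicate number correlated at -0.303 to 0.084 between groups, so the numbers were not taken to pair the libraries. With the replicate block and the FPKM filter, 1 enzyme was a DEG in each line and 0 between them, and all DEGs numbered 440, 536 and 28. The enzyme was Tgm2, from which nothing is read with that filter. With the count filter and the block, Plod1 missed the FDR limit in OVE853 (0.070), and Plod3 (0.0688) and P4ha1 (0.0637) missed it in OVE918. There 2 enzymes (Lox and Tgm2) passed, beside 11.6% of all genes. The fits with the count filter that left out a library, added the block or used DESeq2, those of partner genes included, and the counts by FDR alone under each alternative, were chosen after seeing the data.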

Other observations

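Further partners and substrates of low level were tested with the count filter only. Col5a2, a chain of type V collagen, had 58 to 88 counts in the WT libraries and was an elevated DEG in both lines, with log2 fold changes of 1.38 (edgeR FDR 0.0208) and 1.80 (edgeR FDR 0.0029). Without WT replicate 3 it narrowly missed the limit in OVE853 (1.13, edgeR FDR 0.05 after rounding) and passed in OVE918 (1.57, edgeR FDR 0.00617). Adamts3, a procollagen N-proteinase, was an elevated DEG in OVE853 with a log2 fold change of 1.04 (edgeR FDR 0.0311), while its value in OVE918 was 0.51 (edgeR FDR 0.199). Without WT replicate 3 Adamts3 missed the limit in OVE853 (0.84, edgeR FDR 0.0917). Fbln5, an elastic fibre protein that binds Loxl1, was at 11.7, 5.77 and 6.10 CPM in WT and at 4.75, 2.61, 2.56 and 4.43 CPM in OVE918, where it fell by 1.11 on the log2 scale (edgeR FDR 0.0302). The transglutaminase genes Tgm1, Tgm3 and Tgm4, each under 4 CPM in every library, did not pass the test in either line.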
